A study of Mus musculus with 6 samples.

Results

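Fibroblast growth factors (FGFs) are secreted proteins that bind, together with heparan sulfate, to receptor tyrosine kinases on the cell surface. The activated receptors signal through the adaptor FRS2 to RAS and ERK, and ERK output raises inhibitors of its own path such as Sprouty proteins. In embryos FGF7 and FGF10 are made by mesenchyme and act on a splice form of FGFR2 found in epithelium, while fibroblasts themselves respond mainly through FGFR1. The genes described here are 5 ligand genes (Fgf1, Fgf2, Fgf7, Fgf10, Fgf18) and 5 receptor genes (Fgfr1, Fgfr2, Fgfr3, Fgfr4, Fgfrl1), chosen by name. All 10 were matched by symbol among 49315 gene identifiers, and 9 of the 10 passed the filter on low counts.

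Poly(A)-selected RNA was sequenced from 6 untreated lines of mouse embryo fibroblasts (MEFs) at passage 4. The SG lines (SG1 to SG3, that is SG1, SG2 and SG3 in this order; genotype p53-/-;MDMXSG/SG) were homozygous for a knock-in of MDMX with the substitutions W201S and W202G, which disrupts its binding to the kinase CK1-alpha. The WT lines (WT3, WT9, WT11; genotype p53-/-;MDMXWT/WT) carried wild-type MDMX. All 6 lines were of strain C57BL/6 and lacked p53, and each came from a single embryo, so the results hold for cells without p53 and the replicate is an embryo-derived line. The study set SG against WT lines to find genes affected by the MDMX mutation.

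Libraries held between 49317925 and 65457242 counts. Fibroblast markers were abundant, with the 10 genes of that list summing to 14730 to 17690 CPM (each count divided by the TMM-scaled library total, on the usual CPM scale) in SG lines and 16050 to 16290 CPM in WT lines. Of the 10, 2 passed the threshold as lower in SG, Thy1 and Prrx1, against 1.1% of all tested genes. Prrx1 is also in the limb mesenchyme list below. The Thy1 call was lost without SG2, and that of Prrx1 held in only 7 of 16 alternatives, being lost without SG1, SG2, WT3, WT9 or WT11, without both SG1 and WT9, with upper quartile scaling, with a minimum of 1 CPM in 3 lines and with a robust prior. Xist was read at 402 CPM in SG1, 343 CPM in WT9 and 0.562 to 0.710 CPM in the other 4 lines. Of the marker lists of other cell types, those whose summed levels did not overlap between genotypes were the adipocyte list (31.7 to 48.8 CPM in SG, 54.5 to 68.6 CPM in WT) and the neural and glial list (471 to 494 CPM in SG, 336 to 422 CPM in WT, mostly Nes). The higher neural and glial sum in SG was not shared by most of its 8 members. Of these, 3 had a log2 fold change above 0 and 5 below (median -0.11), with Sox2 at -2.89. Summed macrophage markers (8 of 8 tested) were 27.4 to 63.0 CPM in SG and 11.96 to 33.8 CPM in WT lines, and cartilage markers (5 of 7 tested, Matn1 at 0 in every line) were 54.9 to 165.8 CPM in SG and 33.6 to 56.4 CPM in WT lines. Epithelial markers (6 of 10 tested, all 6 with a log2 fold change above 0) summed to 50.8, 50.4 and 21.5 CPM in SG1 to SG3. In WT lines they summed to 15.2 to 29.3 CPM. Among them the untested Krt5 was at 2.94 CPM in SG1, 1.68 CPM in SG2 and 0 in the other 4 lines.

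Promoters of 3 members are shown because these genes stand for the patterns described below. Fgf7 was the member that changed, Fgf18 had the largest fold difference, and Fgfrl1 was the steadiest member. Each window runs from 250 bases before to 50 after the start given by RefSeq (GRCm38.p6), 5′ to 3′ on the gene's strand, with capitals marking a CCAAT box (CCAAT) or a GC box (GGGCGG), on either strand. Fgf7 lies on the plus strand at chr2:126034408-126034707, Fgf18 on the minus strand at chr11:33147351-33147650, and Fgfrl1 on the plus strand at chr5:108693979-108694278.
Fgf7: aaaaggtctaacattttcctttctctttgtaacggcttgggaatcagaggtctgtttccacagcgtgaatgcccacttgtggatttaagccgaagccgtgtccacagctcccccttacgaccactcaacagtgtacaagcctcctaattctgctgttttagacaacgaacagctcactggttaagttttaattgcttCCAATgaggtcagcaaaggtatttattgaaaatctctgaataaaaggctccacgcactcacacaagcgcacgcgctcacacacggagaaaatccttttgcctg
Fgf18: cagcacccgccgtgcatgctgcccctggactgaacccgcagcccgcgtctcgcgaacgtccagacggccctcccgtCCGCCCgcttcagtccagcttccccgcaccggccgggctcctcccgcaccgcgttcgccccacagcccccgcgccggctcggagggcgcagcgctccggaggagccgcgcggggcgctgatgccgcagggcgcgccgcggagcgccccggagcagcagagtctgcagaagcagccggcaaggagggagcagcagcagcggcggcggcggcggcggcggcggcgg
Fgfrl1: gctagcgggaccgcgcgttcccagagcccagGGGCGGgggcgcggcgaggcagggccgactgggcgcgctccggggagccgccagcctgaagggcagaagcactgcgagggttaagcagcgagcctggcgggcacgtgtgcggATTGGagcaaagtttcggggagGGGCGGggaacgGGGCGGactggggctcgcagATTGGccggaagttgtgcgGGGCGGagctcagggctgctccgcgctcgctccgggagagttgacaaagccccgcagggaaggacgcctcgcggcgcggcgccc
The Fgf7 window had a GC content of 45.7%, with 1 CCAAT box 53 bases before the start, while the Fgf18 window had a GC content of 78.7% and 1 GC box, 174 bases before the start. The Fgfrl1 window was also rich in GC (73.7%) and held 4 GC boxes and 2 CCAAT boxes. Over all 32851 windows of this length, 37.4% held a CCAAT box and 35.7% a GC box. A form of the core motif of TCF/LEF factors (CTTTGA, either strand), which bring beta-catenin to DNA, was in 0 of the 9 windows of 8 members. Of all windows, 16% held it. Other forms of the motif were not searched. Fgf1 and Fgfr1 were not among these 8 members and were not searched, so the result does not cover them. It says only that those letters are not in the 9 windows.

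Fgfr1 and Fgf7 were the most abundant members per length of annotated exons. Mean levels over the 6 lines were 28.4 RPKM (CPM divided by exon length in kilobases) for Fgfr1, 22.7 for Fgf7, 11.3 for Fgfrl1, 6.07 for Fgf2, 4.17 for Fgfr2, 2.61 for Fgf10, 0.534 for Fgf18, 0.141 for Fgfr3, 0.0425 for Fgf1 and 0.0196 for Fgfr4. Ranges over the 6 lines of neighbours in this order overlapped for Fgfr1 and Fgf7, for Fgfr2 and Fgf10 and for Fgf1 and Fgfr4, and for no other neighbours. By genotype mean the first pair changed places, with Fgf7 at 30.1 and Fgfr1 at 26.1 RPKM in SG, and Fgf7 at 15.2 and Fgfr1 at 30.7 RPKM in WT lines. SG1 kept the WT order, with Fgfr1 at 28.1 and Fgf7 at 21.9 RPKM. Among all tested genes, 87.9% had a lower RPKM than Fgfr1 and 84.8% a lower one than Fgf7, against 9.43% for Fgfr3 and 1.44% for Fgf1. Exon length counts every annotated exon, so genes with long exons that these cells do not use are set too low.

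**Figure D1:**
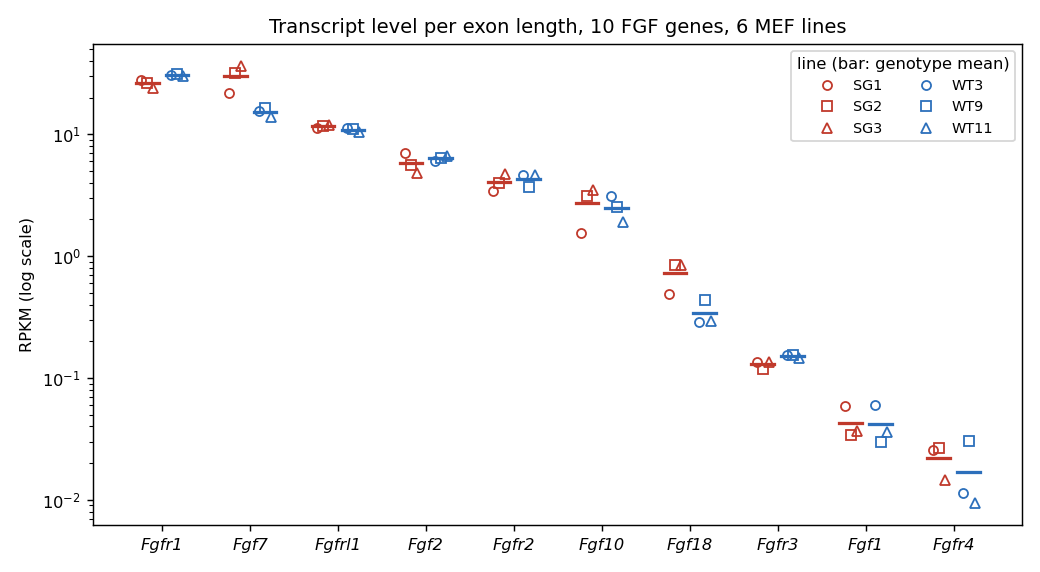
RPKM on a log axis of the 10 FGF genes, ordered by mean level, with 1 symbol per line (SG lines red, WT lines blue) and a bar at each genotype's mean. Fgf7 lies between 21.9 and 36.5 RPKM in SG lines and between 13.8 and 16.4 RPKM in WT lines, while Fgfrl1 lies between 10.4 and 11.9 RPKM in all 6.

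Among the ligand genes, Fgf7 rose in SG lines. It encodes keratinocyte growth factor, which fibroblasts make and epithelium receives. Fgf7 (ENSMUSG00000027208, chromosome 2, 126034658 to 126091185 in GRCm38) stood at 71.0, 104 and 118 CPM in SG1 to SG3, and at 50.4, 53.2 and 44.8 CPM in WT3, WT9 and WT11. All 3 SG lines were above all 3 WT lines, and SG1 was the closest to them. The means were 97.8 ± 24.3 CPM in SG and 49.5 ± 4.26 CPM in WT (SD, n = 3 each), 1.98-fold higher (log2 fold change 0.98, SE 0.17, 95% interval 0.59 to 1.38, edgeR quasi-likelihood adjusted p = 0.0355 over 16068 genes). The call was lost without SG2 (adjusted p = 0.147), SG3 (0.0528), WT3 (0.135) or WT11 (0.1435) and with a robust prior (0.1015). Over all 16 alternatives its adjusted p ran from 9.85e-05 to 0.147 and its log2 fold change from 0.82 to 1.22. In bulk RNA, more cells that make a transcript and more of it per cell cannot be told apart.

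Fgf7 was thus 1 member past the threshold of 9 tested, with 1 higher and 0 lower, against 1.9% of all tested genes in either direction, 0.809% higher and 1.1% lower. At an unadjusted p under 0.05, 2 members were higher (Fgf7, Fgf18) and 1 lower (Fgfr1), where 15.5% of all tested genes passed, and DESeq2 called Fgf7 higher and Fgfr1 lower, where it called 6.68% of the genes it gave an adjusted p. The CPM of the genotypes did not overlap for 4 members (Fgf7, Fgf18, Fgfr1, Fgfr3), a separation seen in 21.2% of all tested genes. The median log2 fold change was 0.06 over the 9 members and 0.00 over all tested genes. The 9 include members at or under about 1 CPM, where such small counts limit what a test can detect.

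**Figure D2:**
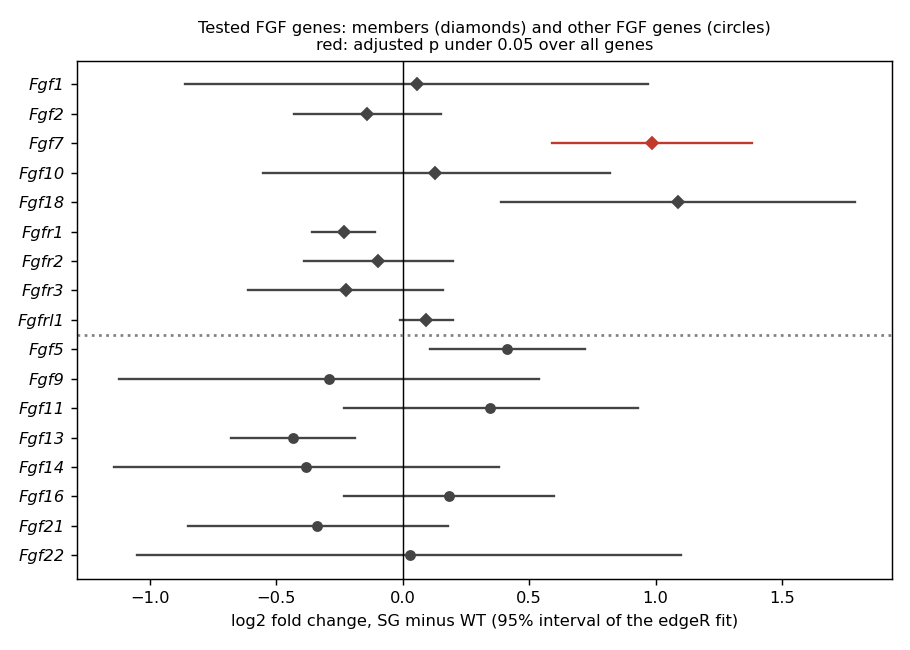
Log2 fold change of SG minus WT lines with its 95% interval for the 9 tested members (diamonds) and the 8 tested other FGF genes (circles). Fgf7, in red, is the gene past the threshold. The intervals of Fgf18 (0.39 to 1.79) and Fgf5 (0.11 to 0.72) also lie above 0. Those of Fgfr1 (-0.36 to -0.11) and Fgf13 (-0.68 to -0.19) lie below 0.

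Fgf18, a ligand of skeletal growth, had the largest fold difference of the tested members, at a low level, and did not pass. Fgf18 (ENSMUSG00000057967, chromosome 11, 33117430 to 33147400) was counted 32, 64 and 59 times in SG1 to SG3, and 17, 34 and 21 times in WT3, WT9 and WT11. These counts equal 0.580, 1.00 and 1.01 CPM in SG lines and 0.340, 0.520 and 0.350 CPM in WT lines. SG1 exceeded WT9, the highest WT line, by a small margin. The log2 fold change was 1.09 (SE 0.30, adjusted p = 0.127), with adjusted p from 0.0321 to 0.369 over 15 alternatives. It passed in 1 of these, the fit that left out both SG1 and WT9, where Xist was read (log2 fold change 1.54, adjusted p = 0.0321, 4.36% of all genes called). The summed cartilage markers were also highest in SG3 and SG2, and their part in this result was not tested.

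Fgf10, the limb and lung mesenchyme ligand closest in kind to Fgf7, overlapped between genotypes. Levels of Fgf10 (ENSMUSG00000021732, chromosome 13, 118669791 to 118792115) were 7.12, 14.5 and 16.1 CPM in SG1 to SG3, and 14.2, 11.5 and 8.76 CPM in WT3, WT9 and WT11. The lowest and the highest of the 6 lines were both SG lines. The log2 fold change was 0.13 (SE 0.29, 95% interval -0.55 to 0.82, adjusted p = 0.88), a value that turned below 0 without SG3 or without WT11. CPM of Fgf7 was 9.97, 7.19 and 7.37 times that of Fgf10 in SG1 to SG3, and 3.55, 4.61 and 5.11 times in WT3, WT9 and WT11, so the ratio did not overlap although Fgf10 itself did.

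Fgf2 (ENSMUSG00000037225, chromosome 3, 37348346 to 37410108), a broad mitogen of fibroblasts, stood at 47.4, 37.8 and 32.3 CPM in SG1 to SG3, and at 40.7, 43.6 and 45.2 CPM in WT3, WT9 and WT11. The SG lines lay on both sides of the WT lines (log2 fold change -0.14, SE 0.12, 95% interval -0.43 to 0.15, adjusted p = 0.652). Of its exon length, 9.44% overlaps Nudt6 on the other strand, a gene with 542 counts in all libraries together against 14520 for Fgf2. Fgf1, which can bind every FGF receptor, had 15, 10 and 10 counts in SG1 to SG3, and 14, 9 and 10 counts in WT3, WT9 and WT11. With so few reads its interval was wide (log2 fold change 0.06, 95% interval -0.86 to 0.97, adjusted p = 0.965), and a difference of that size was not detectable at this depth.

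**Figure D3:**
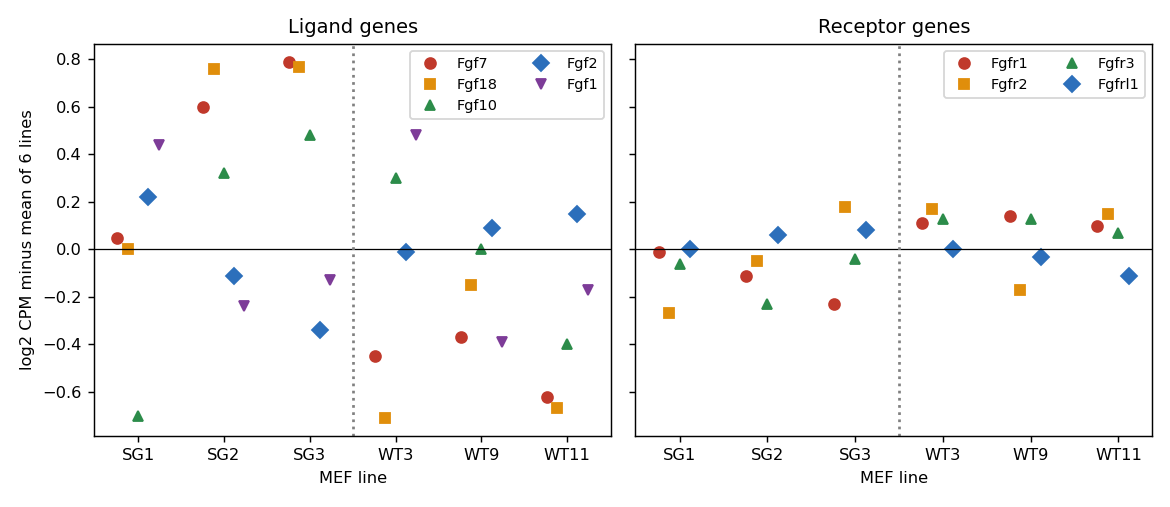
Log2 CPM of each tested member minus its mean over the 6 lines, ligand genes on the left and receptor genes on the right, with SG lines left of the dotted line and WT lines right of it. Fgf7 and Fgf18 lie at or above 0 in SG lines and below 0 in WT lines, while the tested receptor genes lie between -0.27 and 0.18.

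Across the 6 lines each ligand gene spanned more than each of the 4 tested receptor genes, though Fgf2 came close to Fgfr2. The untested Fgfr4 was left out, with 2 to 7 counts and a wide range of 0.0333 to 0.107 CPM. Fgf1, also low at 9 to 15 counts, was kept, and counting error widens its span. For Fgf7 and Fgf18 the span includes the difference between genotypes. From the lowest to the highest line, log2 CPM spanned 1.48 for Fgf18, 1.40 for Fgf7, 1.17 for Fgf10, 0.87 for Fgf1 and 0.55 for Fgf2. The tested receptor genes spanned 0.45 (Fgfr2), 0.37 (Fgfr1 and Fgfr3) and 0.19 (Fgfrl1). Within SG, line SG1 was the lowest for Fgf7, Fgf10 and Fgf18 and the highest for Fgf2.

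Among the receptor genes 0 of the 4 tested passed in edgeR, against 1 (Fgfr1) at an unadjusted p under 0.05 and in DESeq2. All genes gave 1.9% in edgeR, 15.5% at an unadjusted p under 0.05 and 6.68% in DESeq2. Fgfr1 (ENSMUSG00000031565, chromosome 8, 25513654 to 25575718), the main receptor of fibroblasts, was the closest, with 277, 258 and 239 CPM in SG1 to SG3, and 302, 308 and 299 CPM in WT3, WT9 and WT11. All SG lines lay below all WT lines, which differed little among themselves (258 ± 19.3 CPM in SG, 303 ± 4.77 CPM in WT, SD, n = 3 each). The log2 fold change was small, -0.23 (SE 0.05, 95% interval -0.36 to -0.11), with an edgeR adjusted p = 0.0812. It passed in 4 of 16 alternatives: without a count filter (adjusted p = 0.0133, a fit that called 3.33% of all genes), in DESeq2 (0.00421), with Xist as a covariate (0.04996, 2.62% of all genes called) and without SG1 (0.0212, 3.53% of all genes called). Over all 16 its adjusted p ran from 0.00421 to 0.26.

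Fgfr2, the gene whose epithelial splice form receives FGF7 and FGF10, stood at 35.4, 41.2 and 48.4 CPM in SG1 to SG3, and at 48.3, 38.0 and 47.5 CPM in WT3, WT9 and WT11. The genotypes overlapped, and the low lines were SG1 and WT9 (log2 fold change -0.10, SE 0.13, adjusted p = 0.781). Counts per gene do not tell the epithelial from the mesenchymal splice form. Of the epithelial splicing factors that favour the first, Esrp1 averaged 0.0338 CPM in SG and 0.0102 CPM in WT, under the 0.0459 to 0.0600 CPM that 3 counts are worth, and Esrp2 averaged 3.31 CPM in SG and 2.99 CPM in WT. As annotated, Fgfr2 spans 130162451 to 133123350 on chromosome 7, and 3.04% of its exon length overlaps Ctbp2 on the same strand. Ctbp2 had 34314 counts in all libraries together, against 15157 for Fgfr2.

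Fgfrl1 encodes a receptor that lacks the kinase domain, and its transcript hardly varied. Fgfrl1 (ENSMUSG00000008090, chromosome 5, 108692382 to 108706924) stood at 31.3, 32.7 and 33.2 CPM in SG1 to SG3, and at 31.4, 30.7 and 29.0 CPM in WT3, WT9 and WT11. SG1 lay just below WT3, so the genotypes overlapped, and the 95% interval of the log2 fold change, -0.01 to 0.20, held only small differences (adjusted p = 0.402).

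Fgfr3 and Fgfr4, which act in cartilage and in liver and muscle among other tissues, were close to absent. Fgfr3 had 53, 54 and 57 counts in SG1 to SG3, and 55, 72 and 63 counts in WT3, WT9 and WT11. In CPM all SG lines (0.846 to 0.976) lay below all WT lines (1.05 to 1.10), giving -0.22 on the log2 scale (SE 0.17, adjusted p = 0.585). Fgfr4 had 5, 6 and 3 counts in SG1 to SG3, and 2, 7 and 2 counts in WT3, WT9 and WT11, and was not tested.

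Seen as a makeup of the family, Fgf7 took the largest share of summed ligand RPKM in every line. The share was 70.6%, 77.0% and 79.9% in SG1 to SG3, against 62.2%, 63.5% and 60.8% in WT3, WT9 and WT11. Fgf2 held 15.5 ± 6.33% in SG and 26.1 ± 2.86% in WT lines (SD, n = 3 each). Summed ligand RPKM was 39.4 ± 7.57 in SG and 24.5 ± 1.59 in WT, of which Fgf7 made up 30.1 in SG and 15.2 in WT.

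The receptor makeup differed less between lines. Fgfr1 held 62.2 ± 3.20% of summed receptor RPKM in SG and 66.6 ± 1.16% in WT, and Fgfrl1 held 27.8 ± 1.48% in SG and 23.7 ± 0.671% in WT lines. Fgfr2 held 9.64 ± 1.74% in SG and 9.36 ± 1.21% in WT, and Fgfr3 and Fgfr4 together stayed under 1% in every line. These shares were not tested. By counts in place of RPKM the shares move, since the genes differ in length, with Fgf7 then first among ligands on average and Fgf2 ahead of it in WT11.

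**Figure D4:**
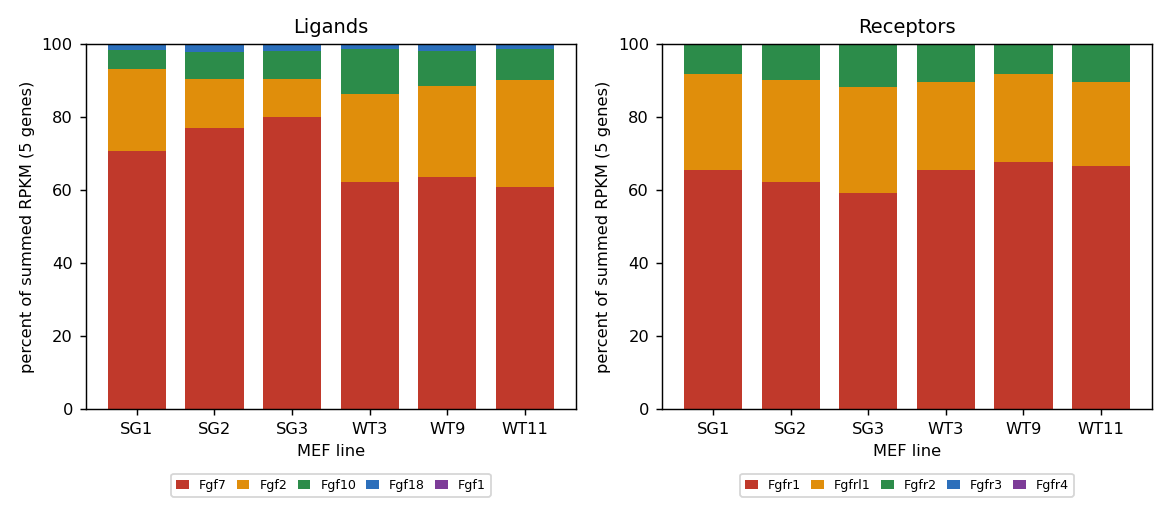
Stacked shares of summed RPKM per line, in percent, of the 5 ligand genes on the left and the 5 receptor genes on the right, SG lines first. Fgf7 takes 60.8% to 79.9% of ligand RPKM and Fgfr1 59.1% to 67.7% of receptor RPKM.

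Of the 17 other FGF genes listed, 8 were tested and 0 passed, with 1 higher and 1 lower at an unadjusted p under 0.05 and 1 lower in DESeq2. Over all genes these 3 shares were 1.9%, 15.5% and 6.68%. Fgf5, which ends the growth phase of hair, stood at 4.66, 4.22 and 3.53 CPM in SG1 to SG3, and at 2.96, 3.07 and 3.26 CPM in WT3, WT9 and WT11 (log2 fold change 0.41, SE 0.13, adjusted p = 0.178). Fgf13, which encodes an intracellular protein that binds sodium channels and not FGF receptors, stood at 6.03, 6.82 and 6.44 CPM in SG1 to SG3, and at 7.54, 9.52 and 8.98 CPM in WT3, WT9 and WT11 (log2 fold change -0.43, SE 0.11, adjusted p = 0.0932). In both genes the genotypes did not overlap. Fgf9, Fgf11, Fgf14, Fgf16, Fgf21 and Fgf22 overlapped, with log2 fold changes from -0.38 to 0.35. The other 9 had at most 9 counts in a library, and Fgf4 had 0 in all 6, which allows up to 0.0600 CPM in the shallowest.

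Over 4 further lists and these FGF genes, 88 of 99 pathway genes were tested, of which 4 rose and 1 fell. That is 5.68%, against 1.9% of all tested genes, with a median log2 fold change of -0.01. The genotypes did not overlap for 37.5%, against 21.2% of all tested genes. At an unadjusted p under 0.05 there were 33 of the 88, against 15.5% of all tested genes. DESeq2 called 6.68% of the genes it gave an adjusted p. These shares are the ones to set beside the counts of each list below. The 5 edgeR calls, like that of Fgf7, were lost when single lines were left out. Of the 88, 0 passed without SG2, without WT3 or without WT11, and without SG3 the 4 that rose all lost their call. Calls over all genes fell in the same fits, from 306 to 3 without SG2, 24 without WT3, 29 without WT11 and 222 without SG3.

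Coreceptors and ligand carriers had 1 member higher and 1 lower of 16 tested (median log2 fold change -0.15). At an unadjusted p under 0.05, 3 were higher and 7 lower, and DESeq2 called 2 higher and 3 lower. The genotypes did not overlap for 9 of the 16, against 21.2% of all tested genes. Flrt3, a membrane protein that binds FGF receptors and aids their signalling in Xenopus, fell to 17.1, 14.3 and 14.2 CPM in SG1 to SG3, against 23.6, 26.2 and 25.7 CPM in WT3, WT9 and WT11 (log2 fold change -0.73, SE 0.08, adjusted p = 0.0126). Hspg2, which encodes perlecan, a heparan sulfate proteoglycan that stores FGF2 in matrix, rose to 1005, 928 and 1027 CPM in SG1 to SG3, against 782, 811 and 722 CPM in WT3, WT9 and WT11 (log2 fold change 0.36, SE 0.06, adjusted p = 0.0289). In neither gene did the genotypes overlap.

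Heparan sulfate enzymes had 1 member higher and 0 lower of 15 tested (median log2 fold change -0.10), with 3 higher and 4 lower at an unadjusted p under 0.05 and 3 each way in DESeq2. Hs6st2, which adds sulfate at the 6-O position that FGF and receptor contacts use, rose to 217, 254 and 245 CPM in SG1 to SG3, against 162, 187 and 169 CPM in WT3, WT9 and WT11 (log2 fold change 0.47, SE 0.07, adjusted p = 0.0280).

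In the list of adaptors and transducers 0 of 29 passed, with 4 higher and 1 lower at an unadjusted p under 0.05 and 1 each way in DESeq2. The smallest unadjusted p-values were those of Stat3 (log2 fold change -0.20, adjusted p = 0.0826) and Grb14, an adaptor of receptor kinases (0.53, adjusted p = 0.121). The median log2 fold change was 0.01.

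Feedback and target genes of ERK had 2 members higher and 0 lower of 20 tested, with 6 higher and 3 lower at an unadjusted p under 0.05 and 4 higher and 1 lower in DESeq2. Spry2, a Sprouty inhibitor of receptor kinase signalling, rose to 67.0, 88.9 and 81.9 CPM in SG1 to SG3, against 49.1, 55.5 and 47.3 CPM in WT3, WT9 and WT11 (log2 fold change 0.65, SE 0.11, adjusted p = 0.0307). A robust prior also ended this call. Etv5, an ETS transcription factor that FGF signals raise, rose to 44.5, 46.5 and 48.5 CPM in SG1 to SG3, against 37.4, 40.6 and 38.6 CPM in WT3, WT9 and WT11 (log2 fold change 0.26, SE 0.05, adjusted p = 0.0437). This call was also lost with Xist as a covariate. Other common readouts did not pass: Spry4 had a log2 fold change of -0.26, Dusp6 of 0.20, Etv4 of -0.09 and Spry1 of 0.12, and the list's median was 0.00. The genotypes did not overlap for 7 of the 20, against 21.2% of all tested genes. Besides Spry2 and Etv5 these were Dusp5 (0.48) and Phlda1 (0.43), higher in SG, and Dusp4 (-0.43), Il17rd (-0.26) and Rasa1 (-0.12), lower. None of those passed.

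**Figure D5:**
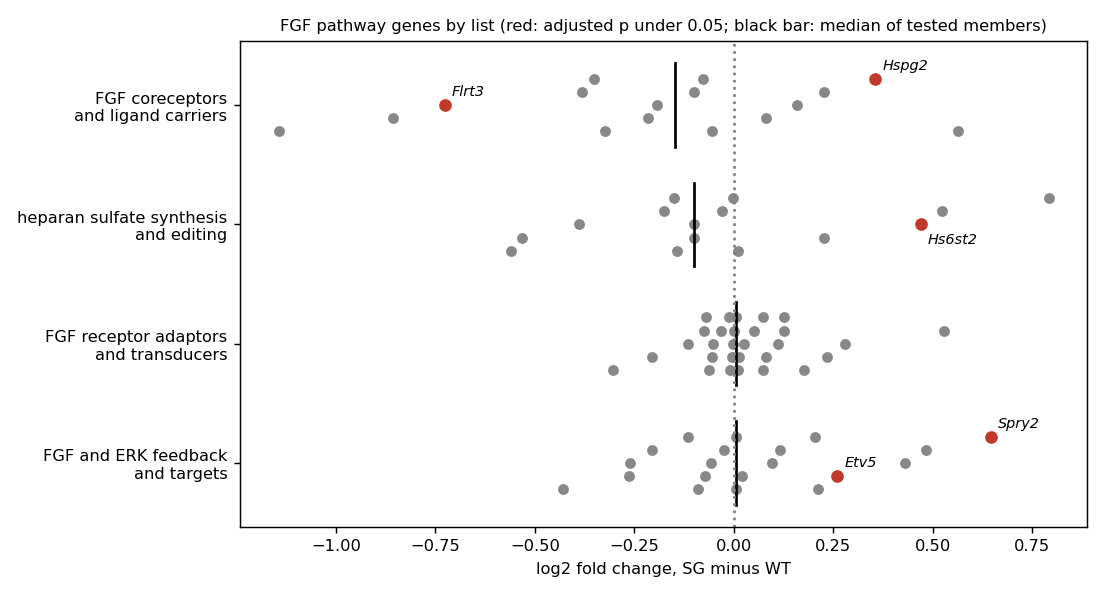
Log2 fold change of SG minus WT for each tested gene of 4 FGF pathway lists, spread vertically for legibility, with the list median as a black bar. The 5 genes in red passed the threshold, Flrt3 at -0.73 and the others between 0.26 and 0.65.

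Limb mesenchyme genes, among which Fgf10 acts in the embryo, had 1 member higher (Meis2) and 5 lower of 19 tested, against 0.809% higher and 1.1% lower of all tested genes, with a median log2 fold change of -0.33. The 4 of smallest p were Shox2 (log2 fold change -0.54, adjusted p = 0.00802), Lhx9 (-0.76, 0.0229), Msx1 (-2.52, 0.0241) and Lhx2 (-2.49, 0.0289), all lower in SG. These calls were lost without SG2 or WT3, those of Msx1 and Lhx2 also without WT11, and that of Lhx2 also with a robust prior. The Meis2 call was lost under the same 4 settings as that of Lhx2. Summed over all 20 genes of the list, the level was 776 to 927 CPM in SG and 998 to 1023 CPM in WT lines, and its part in the FGF results was not tested. Tbx5, a direct activator of Fgf10 in the forelimb, did not pass, with 7.77 ± 1.38 CPM in SG and 8.54 ± 2.19 CPM in WT (SD, n = 3 each).

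By likeness of pattern over the 6 lines, Fgf7 was nearest to Ccdc85a (root mean square difference of centred log2 CPM 0.088) and to Ctsh, the gene of cathepsin H (0.091), among 11005 candidate genes. Both of these were past the threshold, with log2 fold changes of 1.10 and 0.93. They were picked for a pattern that includes the Fgf7 difference between genotypes, so their calls add no support. For Fgf18 the nearest were Cyp1b1 (0.137) and Pde3a (0.145), and for Fgf10 they were Nrn1 (0.16) and Pla2r1 (0.2). Fgf2 was nearest to the proteoglycan gene Vcan (0.057) and to Coro7, and Fgf1 to Galnt12 (0.165) and Sema6c. Among receptors, Fgfr1 was nearest to Zfp37 (0.026) and Slc6a8, Fgfr2 to Wdpcp (0.027) and Tst, and Fgfr3 to Sash1 (0.029) and Stat3. Small values for these receptors reflect how little they vary, and with 6 lines such likeness is a description of these libraries.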

How the data were processed

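Each deposited file gives raw read counts by gene for 1 line, not normalised, with exon positions and length. Per the submitters' processing notes the authors used Trimmomatic 0.36, STAR 2.5.2b, GRCm38 and featureCounts of Subread 1.5.2, with DESeq2 also named. Annotation release, strand setting and treatment of multimapping reads are not given in the sources used here, and reads shared with overlapping or antisense genes are uncertain. Symbols were taken from GENCODE M21 (48970 of 49315 identifiers) and promoter windows from RefSeq.

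The test was that of edgeR 4.0.16 (R 4.3.3; filterByExpr, TMM, glmQLFit and glmQLFTest, 2-sided, no covariate) on all 16068 genes kept, SG against WT, with Benjamini-Hochberg adjustment and a threshold of 0.05. An SE is the size of the log2 fold change over the root of the F statistic, and the 95% intervals use the moderated degrees of freedom. RPKM used TMM-scaled library sizes and the exon length of the files. The limit for a count of 0 is 3 counts and covers counting error only. On simulated data for SG against WT (16068 genes), edgeR recovered 67.2% of 67 genes at a 1.5-fold change, 92.5% of 67 at 2-fold and 100% of 66 at 4-fold, with 15 of 188 calls false. The changed genes were drawn from those with an average log2 CPM above 0. These rates therefore do not cover genes at lower levels, such as Fgf1 and Fgf18.

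The genes named are all members, the tested other FGF genes, per list up to 4 past the threshold (or the 2 of smallest p), and the 2 most alike per member (average log2 CPM at least 1; those of Fgfrl1 are not reported here). Meis2, the splicing factors, some ERK readouts, Tbx5 and Tbx4 were added after their values were seen. Members and lists were chosen with earlier results of these data known. Alternatives were other scalings, filters, DESeq2 1.42.0, limma-voom (limma 3.58.1), a robust prior, Xist as a covariate and leaving out lines. No batch was named in the labels, and none was fitted.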

Additional observations from a re-analysis of the deposited data

How the results depend on the processing

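No paired analysis was possible because the genotypes share only 1 line number, and the numbers name cell lines. Other scalings, limma-voom and a minimum of 1 CPM in 3 lines left the counts of calls within 1.5 times. Members past the threshold, 1 in all, numbered 2 without a count filter, 2 with DESeq2, 2 with Xist as a covariate, 2 without SG1 and WT9, and 0 with a robust prior, and ranged from 0 to 2 when each line was left out in turn. Pathway genes past it, 5 in all, numbered 19 without a count filter, 19 with DESeq2 and 11 without SG1 and WT9, and ranged from 0 to 10 without single lines. Over all genes 306 passed, against 959 without a count filter, 948 with DESeq2 and 703 without SG1 and WT9, and from 3 (without SG2) to 579 (without SG1) when each line was left out. Without SG1 and WT9 the Fgf1 log2 fold change of 0.06 turned to -0.42. When single lines were left out it ranged from -0.22 to 0.38, that of Fgf10 from -0.0855 to 0.41 and that of Fgfr2 from -0.22 to 0.0089, each a member with overlapping genotypes. The cause was not tested. As shares of counts in place of RPKM, which reweights each gene by its exon length, the mean over lines was 34.1% in place of 20.8% for Fgf2, 55.7% in place of 69.0% for Fgf7, 0.4745% in place of 1.60% for Fgf18, 78.7% in place of 64.4% for Fgfr1, 12.2% in place of 9.50% for Fgfr2, 0.282% in place of 0.319% for Fgfr3, 0.0197% in place of 0.0447% for Fgfr4 and 8.87% in place of 25.7% for Fgfrl1. Depth limits Fgf1, Fgf18, Fgfr3 and Fgfr4, with at most 72 counts in a library.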
